A study of Drosophila melanogaster with 20 samples.

Results

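Cytochrome P450 genes were taken as every gene of the deposited count table whose symbol begins with Cyp followed by a digit, with 2 further matching genes not included. The rule found 84 of the 17609 genes. Of these, Cyp1 and Cyp40 are cyclophilins, peptidyl-prolyl isomerases that share only the letters of the name, so the results below are counted over the other 82 genes, 2 of them annotated as pseudogenes. P450 enzymes are heme-containing monooxygenases. Most sit in the endoplasmic reticulum and receive electrons from the reductase Cpr, in part through cytochrome b5, and a smaller clan sits in mitochondria and receives them from ferredoxins. In insects, members of the CYP3 clan are best known for the breakdown of plant toxins and insecticides, the CYP4 clan for fatty acid and hydrocarbon oxidation, and the mitochondrial and CYP2 clans include enzymes that act on steroid hormones.

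RNA was measured in 20 pools of 10 heads from unmated 1-week-old Drosophila melanogaster, 5 pools for each of the 4 combinations of genotype (w- or w+) and sex. The w- flies carry the w1118 allele of white, a partial deletion, and the w+ flies are siblings from the same cross that carry a wild-type white allele of the Harwich line, moved into the w1118 background by 10 generations of backcrossing. The w+ females are heterozygous and the w+ males hemizygous. There is 1 donor allele, X-linked DNA of the donor near white may remain in w+ flies, and nothing in the labels says what pools of 1 number share, so p-values measure the spread between these pools. The white gene itself, w, which encodes a transporter of eye pigment precursors, had 8 to 15 counts in w- males, against 374 to 509 in w+ males, and 4 to 15 counts in w- females, against 481 to 688 in w+ females.

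Between 34211100 and 48866963 counts per pool fell on genes. The mean total was 36355434 in w- males, against 42990676 in w+ males, and an exact permutation test of these means, two-sided with n = 5 each, gave p = 0.00794. For females the mean totals were 38049847 in w-, against 42367032 in w+ pools (same exact permutation test, p = 0.0794). Levels are given as CPM (count relative to the TMM-scaled library size), and 3 counts correspond to between 0.0567 and 0.0977 CPM. The pool of w- females replicate 3 stood apart in digestive enzymes of the midgut, whose 9 markers summed to 225 CPM there and to at most 15.3 CPM in any w+ female pool.

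P450 transcripts took between 0.401% and 0.551% of the counts of a pool. Their summed level was 4486 ± 213 CPM in w- males, against 4836 ± 332 CPM in w+ males, and 4606 ± 322 CPM in w- females, against 4877 ± 209 CPM in w+ females (SD, n = 5 each). With library size alone the order of the female groups turned, to 4484.5 CPM in w- females, against 4304.6 CPM in w+ females, and that of the male groups did not, at 4912.4 CPM in w- males, against 5130.9 CPM in w+ males. Between 67 and 74 of the 82 genes reached 10 counts in a pool. The 39 genes of the CYP3 clan held 61.6% of all P450 counts, the 30 of the CYP4 clan 30.6%, the 9 of the mitochondrial clan 5.70% and the 4 of the CYP2 clan 2.10%.

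Per kb of exon, Cyp313a1 of the CYP4 clan had the highest mean level, at 581 ± 74.1 CPM per kb in w- males, against 540.2 ± 69.7 CPM per kb in w+ males, and 202 ± 31.9 CPM per kb in w- females, against 156 ± 28.8 CPM per kb in w+ females (SD, n = 5 each). Its place depended on sex. In both female groups Cyp6d5 was higher, at 304 ± 31.2 CPM per kb in w- females and 333 ± 22.9 in w+ females. Next over all 20 pools came Cyp6g1, whose overexpression gives flies resistance to DDT and neonicotinoids, with 222 ± 12.1 CPM per kb in w- males and 258 ± 31.0 in w+ males. Cyp28d1, which takes part in nicotine tolerance, followed with 146 ± 26.1 CPM per kb in w- males and 200.3 ± 39.6 in w+ males. Cyp9b2, Cyp6w1, Cyp9f2, Cyp6a20, Cyp4e2 and Cyp4p1 complete the 10 highest, so that 7 of these 10 belong to the CYP3 clan and 3 to the CYP4 clan. The highest mitochondrial member, Cyp12a4, ranked 11, and the highest of the CYP2 clan, Cyp305a1, ranked 16.

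**Figure D1:**
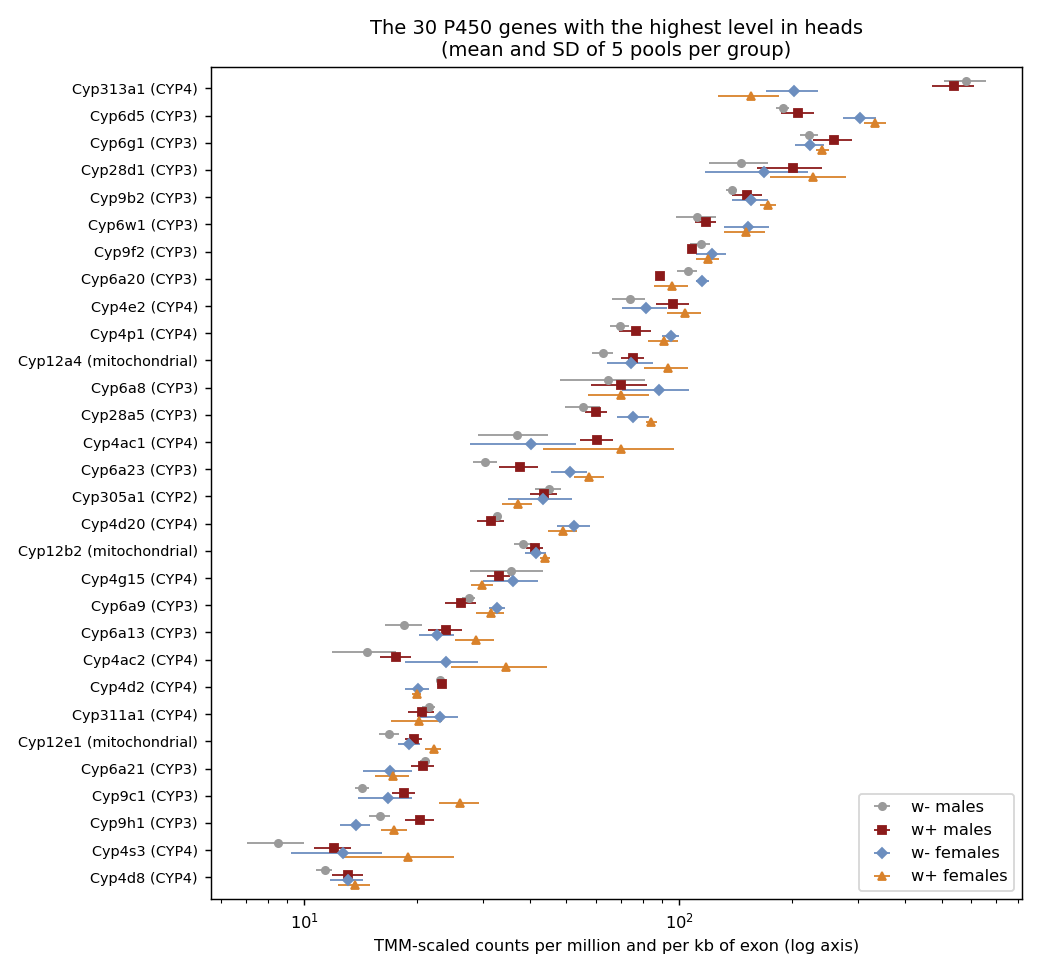
Mean level of the 30 highest P450 genes in each group, in TMM-scaled CPM per kb of exon on a log axis, with the SD over 5 pools and the clan in parentheses. Cyp313a1 leads in both male groups and Cyp6d5 in both female groups.

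Spread between pools of 1 group differed widely between members. Cyp4d2 was the steadiest, with a coefficient of variation of 3.86% averaged over the 4 groups, and Cyp12b2, of the mitochondrial clan, had 5.13%. Cyp4g1, the oxidative decarbonylase that makes cuticular hydrocarbons in oenocytes, had 163% and Cyp6g2, known from the larval corpus allatum, had 82.5%. At the other end of the level scale, 7 genes stayed under the filter in the fit of all 20 pools. Among them Cyp12d1-d had 0 counts in every pool. Its neighbour Cyp12d1-p, a near-identical copy, passed the filter, at 0.128 CPM in w- males and 0.241 CPM in w+ males. Cyp12d1-p had a log2 fold change, w- over w+, of -0.95 in males and -0.20 in females, neither called. How reads were divided between these copies is uncertain.

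Loss of white went with lower levels of more P450 genes than higher ones in male heads. Of the 73 P450 genes tested in males, 1 rose and 13 fell in w- against w+ males (edgeR, adjusted p under 0.05 over all 11187 genes tested), where 4.64% of all genes rose and 8.06% fell (12.7% called in all). The members that fell make up 17.8% of those tested. The median log2 fold change was -0.14 over the 73 genes and 0.00 over all genes. Scaling by library size alone shifted the median of all genes by 0.05 and gave 3 higher and 13 lower, where 1054 of all 11187 genes rose and 722 fell. Without replicate 1, 3 or 5 the total was 8, 6 and 7, where 1041 of 10831, 792 of 11120 and 714 of 11120 genes were called. Without replicate 2 or 4 it was 19 and 16, where 1526 of 11131 and 1313 of 10817 genes were called. The 5 w- and 5 w+ ranges did not overlap for 1 higher and 11 lower P450 genes, against 5.57% of all genes higher and 7.43% lower.

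In females the count was similar. Of 74 P450 genes tested, 3 rose and 12 fell in w- against w+ females (edgeR, adjusted p under 0.05 over 10762 genes), where 4.72% of all genes rose and 4.51% fell (9.23% called in all). The members that fell make up 16.2% of those tested. The median log2 fold change was -0.06 over the 74 genes and 0.00 over all genes. The 5 w- and 5 w+ ranges did not overlap for 1 higher and 6 lower members, against 3.85% of all genes higher and 2.88% lower. Library size alone shifted the median of all genes by 0.14 and gave 8 higher and 8 lower P450 genes, where 1840 of all 10762 genes rose and 375 fell. The P450 median was 0.06 under that of all genes under both scalings. Leaving out replicate 1 or replicate 4 left 0 calls among P450 genes in edgeR, with 24 and 25 of them at an unadjusted p under 0.05. Those fits called 112 of 10648 and 82 of 10681 genes. Leaving out replicate 2, 3 or 5 left 5, 11 and 14, where 240 of 10687, 618 of 10643 and 1121 of 10704 genes were called. DESeq2 with all 10 pools called 5 higher and 17 lower, where it called 1715 of all 10762 genes.

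**Figure D2:**
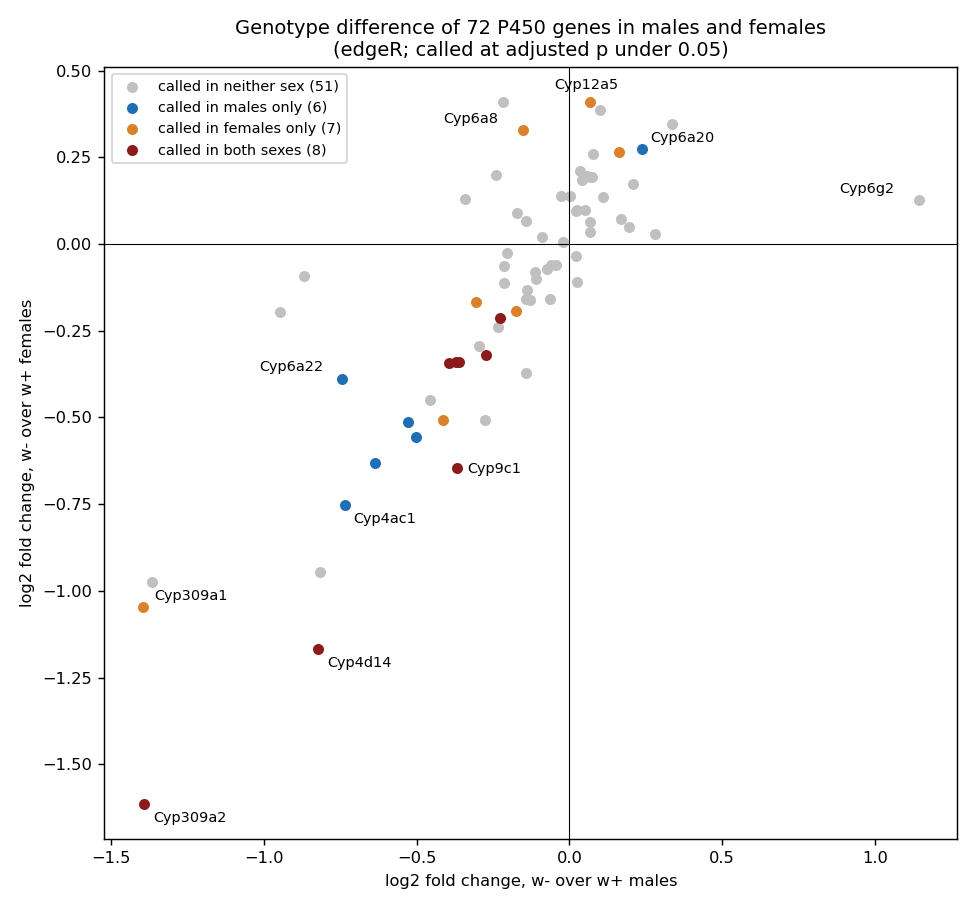
Log2 fold change of w- over w+ in males (horizontal) and females (vertical) for 72 of the 73 P450 genes tested in both sexes, coloured by the sex in which they were called. Cyp4g1 lies outside the axes and is not drawn, and the 8 genes called in both sexes all lie at the lower left, under TMM scaling.

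Of the 73 genes tested in both sexes, 62 had the same sign in males and females (84.9%, against 76.1% of all 10612 genes). Called in at least 1 sex were 21 P450 genes, of which 8 fell in both, 5 fell in males alone, 4 fell in females alone, 1 rose in males alone and 3 rose in females alone. None rose in both, where 2.52% of all genes did. The 8 genes lower in both sexes were Cyp309a2, Cyp4d14, Cyp9c1, Cyp9h1, Cyp6a13, Cyp4e2, Cyp12a4 and Cyp12e1, and over all genes tested in both sexes 2.84% were called lower in both. In females, Cyp12a4 and Cyp4e2 were no longer called without the replicate block (edgeR adjusted p = 0.0982 and 0.0621), and with library size alone neither these nor Cyp9h1 and Cyp12e1 were called. The test of whether the genotype difference differs between the sexes called 0 of 75 P450 genes in edgeR and 0 in DESeq2, with 4 and 5 at an unadjusted p under 0.05 (0.0263% of all genes called, 6.03% at an unadjusted p under 0.05). A call in 1 sex alone is therefore not shown to be a difference between the sexes.

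Cyp309a2 (FBgn0041337, chromosome 2L, 2564886 to 2573037, minus strand), a member of the CYP3 clan, had the largest fall of these 8 in each sex. It had 1.18, 1.48, 1.12, 1.72 and 1.48 CPM in w- males, against 2.84, 3.29, 4.65, 2.87 and 4.90 CPM in w+ males, and 0.559, 0.458, 0.541, 1.24 and 0.671 CPM in w- females, against 1.76, 2.51, 1.49, 3.52 and 1.37 CPM in w+ females. Every w- pool lay under every w+ pool of its sex. The log2 fold change was -1.39 ± 0.19 (SE) in males (edgeR adjusted p = 0.00396) and -1.61 ± 0.20 in females (adjusted p = 0.0119). Its neighbour Cyp309a1 lies 55 bases away on the same strand. Cyp309a1 had 7.28, 7.95, 5.87, 12.9 and 9.13 CPM in w- males, against 12.0, 17.7, 36.8, 16.1 and 39.1 CPM in w+ males, and 8.40, 5.45, 6.545, 14.5 and 8.49 CPM in w- females, against 17.6, 17.4, 12.0, 30.8 and 12.3 CPM in w+ females. The w+ pools spread over more than the w- pools, the ranges of both sexes overlapped, and only the female difference was called (-1.05 ± 0.15, adjusted p = 0.0215, against -1.39 ± 0.41 in males, adjusted p = 0.111). Without the replicate block the female call was lost (adjusted p = 0.0852).

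Cyp4d14 (FBgn0023541, chromosome X, 2173415 to 2175315, minus strand) is a low member of the CYP4 clan on the X chromosome, 619 kb from w. It had 1.56, 1.88, 2.10, 2.38 and 1.76 CPM in w- males, against 3.499, 3.31, 3.45, 3.85 and 2.89 CPM in w+ males, and 0.559, 0.535, 0.768, 0.296 and 0.642 CPM in w- females, against 1.19, 1.27, 1.22, 1.27 and 1.24 CPM in w+ females. Groups did not overlap in either sex, and the log2 fold changes were -0.82 ± 0.10 in males (edgeR adjusted p = 0.00308) and -1.17 ± 0.21 in females (adjusted p = 0.0300). The 2 P450 genes next to it did not pass the test. Cyp4d2, 690 bases away, had a log2 fold change of -0.02 in males (95% interval -0.10 to 0.05) and 0.01 in females (-0.07 to 0.09). Cyp4ae1, the next gene, had 0.20 in males (0.06 to 0.34, adjusted p = 0.122) and 0.05 in females (-0.11 to 0.21). These 3 genes were the only members kept by the rule that lie within 1 Mb of w, and the other genes of this stretch were not analysed here. Donor DNA at Cyp4d14 and loss of white cannot be told apart as sources of the difference.

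Cyp9c1 and Cyp9h1, CYP3 clan genes that lie far apart on chromosome 2R, also separated the genotypes in every pool. Cyp9c1 (FBgn0015040, chromosome 2R, 24631063 to 24632923, plus strand) had 23.1, 24.96, 25.6, 25.9 and 24.8 CPM in w- males, against 34.4, 28.8, 31.0, 33.8 and 32.2 CPM in w+ males, and 28.8, 24.8, 35.4, 32.1 and 24.3 CPM in w- females, against 46.7, 49.7, 40.1, 51.1 and 38.8 CPM in w+ females. Its log2 fold change was -0.37 ± 0.05 in males (edgeR adjusted p = 0.00506) and -0.64 ± 0.11 in females (adjusted p = 0.0298), and the difference between the sexes did not pass (adjusted p = 0.808). Cyp9h1 (FBgn0033775, chromosome 2R, 12840813 to 12842558, minus strand) had 24.6, 24.1, 25.8, 28.4 and 25.5 CPM in w- males, against 29.2, 34.7, 33.7, 30.8 and 36.2 CPM in w+ males, and 24.4, 21.2, 21.1, 24.4 and 19.97 CPM in w- females, against 28.4, 30.9, 26.5, 29.4 and 25.5 CPM in w+ females. It fell in both sexes, with log2 fold changes of -0.36 ± 0.07 (edgeR adjusted p = 0.0118) in males and -0.34 ± 0.05 (adjusted p = 0.0215) in females. Scaled by library size alone, the female value was -0.20 (adjusted p = 0.0543).

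In the other 4 genes lower in both sexes, the ranges of w- and w+ females overlapped. Cyp4e2 (FBgn0014469, chromosome 2R, 8444560 to 8447164, plus strand) averaged 139.7 ± 14.1 CPM in w- males, against 183 ± 18.3 in w+ males, and 155 ± 21.2 CPM in w- females, against 196 ± 20.3 in w+ females (SD, n = 5 each). Its male ranges, 121 to 154 CPM in w- and 159 to 206 CPM in w+, did not overlap, and its female ranges did. Cyp6a13 (FBgn0033304, chromosome 2R, 8570499 to 8572147, plus strand) ranged over 26.9 to 36.1 CPM in w- males, against 32.9 to 43.3 in w+ males, and overlapped in both sexes. The log2 fold changes of Cyp4e2 were -0.39 ± 0.09 in males and -0.34 ± 0.08 in females, and those of Cyp6a13 were -0.37 ± 0.08 and -0.34 ± 0.05 (edgeR adjusted p from 0.0215 to 0.0428). With library size alone the female values were -0.20 for Cyp4e2 (adjusted p = 0.0792) and -0.20 for Cyp6a13 (adjusted p = 0.0399). Cyp4e1, the gene that follows Cyp4e2 after 286 bases on the same strand, had 0.17 in males and 0.07 in females, neither called. On the other side, 1753 bases away on the opposite strand, Cyp4ad1 had -1.37 in males and -0.98 in females, neither called. Its counts were low, at 3 to 14 in w- males, against 14 to 30 in w+ males.

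**Figure D3:**
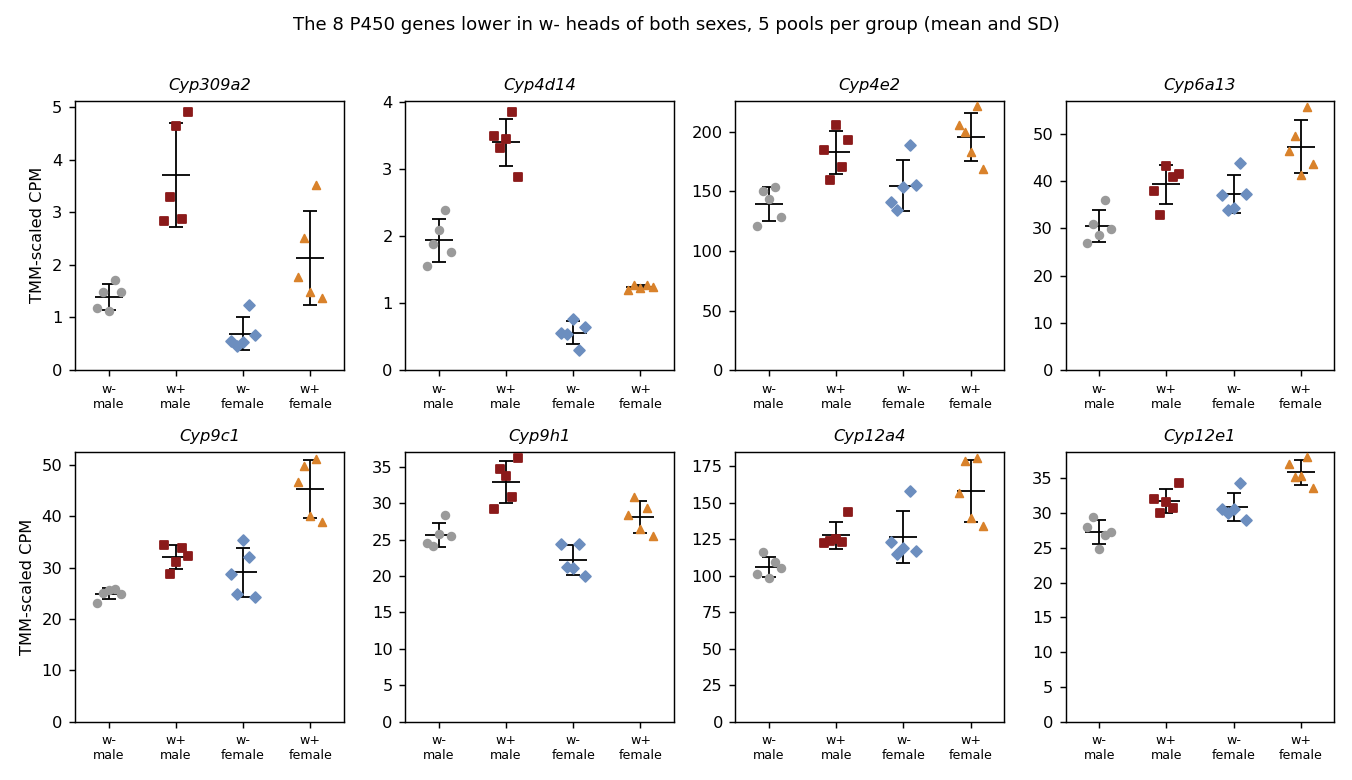
TMM-scaled CPM of the 8 P450 genes called lower in w- heads of both sexes, 1 point per pool, with the mean and SD of 5 pools, from w- males on the left of each panel to w+ females on the right. The w- and w+ points do not overlap in either sex for Cyp309a2, Cyp4d14, Cyp9c1 and Cyp9h1.

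Mitochondrial P450 genes gave 3 calls of 8 tested in each sex, where 12.7% of all genes were called in males and 9.23% in females. Cyp12a4 (FBgn0038681, chromosome 3R, 19135158 to 19137136, plus strand), whose overexpression confers resistance to lufenuron, averaged 106 ± 7.01 CPM in w- males, against 128 ± 9.15 in w+ males, and 126 ± 17.9 CPM in w- females, against 158 ± 21.4 in w+ females (SD, n = 5 each). It fell by 0.27 on the log2 scale in males (edgeR adjusted p = 0.0170) and by 0.32 in females (adjusted p = 0.0413), where library size alone gave -0.18 (adjusted p = 0.0883). Cyp12a5, which lies 453 bases upstream on the same strand, went the other way in females. It had 13.1, 14.0, 12.6, 13.9 and 14.8 CPM in w- females, against 9.73, 8.98, 12.0, 9.22 and 11.8 CPM in w+ females, without overlap (0.41 ± 0.09, adjusted p = 0.0419). In males Cyp12a5 averaged 8.39 ± 1.34 CPM in w- and 7.91 ± 0.374 CPM in w+ pools (0.07 ± 0.08, adjusted p = 0.650), and the difference between the sexes did not pass (0.33 ± 0.13, adjusted p = 0.768). These adjacent paralogs had opposite signs in females under both scalings.

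Cyp12e1 (FBgn0037817, chromosome 3R, 10434789 to 10436704, plus strand) fell in both sexes by small amounts, -0.23 ± 0.05 in males and -0.21 ± 0.03 in females (edgeR adjusted p = 0.0318 and 0.0215), and its spread between pools was among the lowest of the family, at 5.72%. Neither call held with library size alone, at -0.18 in males (adjusted p = 0.0616) and -0.07 in females (adjusted p = 0.373). Cyp12c1 had 10.6, 13.8, 11.2, 15.3 and 12.7 CPM in w- males, against 19.5, 18, 20.4, 17.6 and 22.6 CPM in w+ males, without overlap. It fell in males (-0.64 ± 0.12, adjusted p = 0.0202) and had -0.63 ± 0.15 in females, just outside the threshold (adjusted p = 0.0535). Cyp12b2, Cyp49a1 and Cyp301a1, an enzyme of adult cuticle formation, were not called, with log2 fold changes of -0.11, 0.28 and 0.11 in males and -0.08, 0.03 and 0.14 in females.

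In males alone, Cyp4ac1, Cyp4s3, Cyp6t1 and Cyp6a22 fell besides Cyp12c1. Cyp4ac1 had 52.3, 69.8, 63.9, 76.7 and 44.5 CPM in w- males, against 92.5, 102, 117, 92.7 and 97.8 CPM in w+ males, and 69.2, 49.8, 86.3, 88.6 and 41.6 CPM in w- females, against 118, 155, 94.7, 161 and 54.1 CPM in w+ females. Its log2 fold change was as large in females as in males, -0.75 ± 0.22 and -0.74 ± 0.13, but the female pools spread widely and only males passed (edgeR adjusted p = 0.0851 and 0.0165). The tandem copies downstream of it were not called, with -0.28 for Cyp4ac2 and -0.14 for Cyp4ac3 in males and -0.51 and -0.37 in females, all of 1 sign. Cyp4s3 and Cyp6t1 had the same pattern, with -0.50 ± 0.12 and -0.53 ± 0.11 in males (adjusted p = 0.0402 and 0.0239) and -0.56 ± 0.14 and -0.51 ± 0.20 in females (adjusted p = 0.0627 and 0.140). Cyp6t1 overlaps a non-coding RNA on its own strand, so its reads are less certain.

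In females alone, Cyp6a23, Cyp6d4 and Cyp4e3 fell besides Cyp309a1. Cyp4e3 had 9.29, 8.35, 9.62, 8.21 and 9.37 CPM in w- females, against 13.4, 9.94, 11.6, 16.6 and 13.0 CPM in w+ females, without overlap (-0.51 ± 0.12, edgeR adjusted p = 0.0456), and 9.27, 5.32, 10.5, 24.5 and 14.4 CPM in w- males, where 1 pool lay above all w+ males. Cyp6d4 and Cyp6a23 fell by less, -0.19 ± 0.04 and -0.17 ± 0.03 (adjusted p = 0.0386 and 0.0364). Their ranges overlapped, and both calls were lost without the replicate block (adjusted p = 0.103 for Cyp6d4 and 0.228 for Cyp6a23). With library size alone the values were -0.05 for Cyp6d4 (adjusted p = 0.483) and -0.03 for Cyp6a23 (adjusted p = 0.7745).

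A cluster of 8 Cyp6a genes lies on chromosome 2R between 14871366 and 14889010, and its members did not move together. Cyp6a22 fell in males (-0.74 ± 0.12, edgeR adjusted p = 0.0105), Cyp6a23 fell in females, Cyp6a20 rose in males and Cyp6a8 rose in females, while Cyp6a17, Cyp6a9 and Cyp6a21 were not called and Cyp6a19 passed the filter in females alone, without a call. Cyp6a17, which is needed for normal temperature preference, was low throughout, at 0.298 CPM in w- males, against 0.364 CPM in w+ males, and 0.505 CPM in w- females, against 0.441 CPM in w+ females. Its paralog Cyp6a23 had a mean of 44.1 CPM per kb over all 20 pools, against 0.233 CPM per kb for Cyp6a17, and how reads were divided between these related copies is uncertain.

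Cyp6a20, whose mutants show more aggression between males, was the P450 gene that rose in males. It had 190.2, 205, 191, 172 and 189 CPM in w- males, against 159.9, 163, 159, 158 and 159.8 CPM in w+ males, without overlap (0.24 ± 0.04, edgeR adjusted p = 0.00719). In females it had 213, 210.4, 193, 212 and 209.9 CPM in w-, against 165, 162, 182, 154 and 199 CPM in w+ pools, a difference of the same size that missed the threshold (0.27 ± 0.07, adjusted p = 0.0547). Cyp6a8, a lauric acid hydroxylase that many foreign compounds induce, had 118, 147, 146, 171 and 203 CPM in w- females, against 92.8, 111, 139, 131 and 150.5 CPM in w+ females. The ranges overlapped, and it rose in the fit with the replicate block (0.33 ± 0.06, adjusted p = 0.0298) but was not called without it (adjusted p = 0.223). In males it had -0.15 ± 0.11 (adjusted p = 0.471), which gave the smallest p of the family for a difference between the sexes (0.47 ± 0.14, unadjusted p = 0.00521, adjusted p = 0.634). Cyp317a1 rose in females as well (0.26 ± 0.06, adjusted p = 0.0474, against 0.16 ± 0.05 in males, adjusted p = 0.0664), and its female value was 0.40 with library size alone.

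Several abundant members and those with a role in hormone or hydrocarbon metabolism were not called. Cyp6g1 had -0.21 ± 0.08 in males and -0.11 ± 0.05 in females (edgeR adjusted p = 0.157 and 0.183). Cyp28d1 had -0.46 ± 0.18 and -0.45 ± 0.23, with pools of w- males at 188 to 289 CPM and of w+ males at 254 to 416 CPM, and Cyp6w1 had -0.09 ± 0.08 and 0.02 ± 0.08. Cyp18a1, the hydroxylase that inactivates ecdysteroids, had -0.23 ± 0.07 in males and -0.24 ± 0.18 in females (adjusted p = 0.0777 and 0.411). For Cyp4g15, the relative of Cyp4g1 expressed in brain and glia, the values were 0.08 ± 0.13 and 0.26 ± 0.12.

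Among redox partners, 3 of 6 fell in w- males, where 8.06% of all genes fell, and 0 of 6 were called in females, where 9.23% of all genes were. Cyt-b5, which passes electrons to P450 enzymes, had a log2 fold change of -0.23 ± 0.05 in males (edgeR adjusted p = 0.0150), Cyt-b5-r, a cytochrome b5-related gene, -0.77 ± 0.14 (adjusted p = 0.0205) and the ferredoxin Fdx2 -0.33 ± 0.05 (adjusted p = 0.00609). Their female values were of similar size, -0.22 ± 0.06, -0.71 ± 0.25 and -0.28 ± 0.07 (edgeR adjusted p = 0.0679, 0.120 and 0.0552), and no difference between the sexes was called. Cpr, the reductase that serves the microsomal enzymes, was not called, at 206 CPM in w- males, against 204 in w+ males, and 232 CPM in w- females, against 231 in w+ females. Of 8 tested genes of fatty acid and hydrocarbon synthesis, 4 fell in males, FASN1, FASN2, ACC and Desat1, by between 0.44 and 0.68 on the log2 scale, and 0 were called in females, beside the same shares of all genes. In females these 4 had -0.47, -0.43, -0.32 and -0.49, and no difference between the sexes was called.

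Markers of the fat body, a tissue that also lines the head, also differed between pools. Leaving out the yolk proteins, the 6 genes measured summed to between 4539 and 6789 CPM in w- males, against 7204 and 11058 CPM in w+ males, and to between 7966 and 15097 CPM in w- females, against 11654 and 23830 CPM in w+ females. FASN1 was called in males, and 0 of 5 tested were called in females, with a median log2 fold change of -0.63 in males and -0.57 in females. The highest mean of these 6 genes was that of apolpp in every group. Treh was not lower in males (-0.02 ± 0.05, edgeR adjusted p = 0.831) and had -0.25 ± 0.07 in females (edgeR adjusted p = 0.0580). Fbp1, one of the defining markers, was at most 1.99 CPM in any pool, and averaged 0.570 CPM in w- females, against 0.127 CPM in w+ females. In females the 4 hemocyte markers summed to between 491 and 882 CPM in w-, against 417 and 506 CPM in w+ pools, with overlap, and 0 of the 4 were called. The 4 muscle markers summed to between 2786 and 3209 CPM in w- females, against 2089 and 2719 CPM in w+ females, without overlap, and 1 of them, Mhc, a myosin heavy chain, rose (0.42 ± 0.09, edgeR adjusted p = 0.0402). The part of these tissues in the P450 differences was not tested, and in pooled heads fewer cells of a type and less RNA per cell cannot be told apart.

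Pools also ranked alike across members. Of the 12 genes that fell in females, 8 had their lowest w+ level in replicate 5 and 10 their highest in replicate 4. In w- females, 8 of the 12 had their highest level in replicate 4 as well, and replicates 2 and 5 were lowest for 5 each. In w- males, 10 of the 13 genes that fell had their highest level in replicate 4. The w+ males differed, with 6 of the 13 highest in replicate 5, 4 in replicate 3 and 2 in replicate 4. The fat body gene apolpp had 6539, 4811, 7680, 7940 and 4550 CPM in w- females, against 11680, 11895, 7739, 12199 and 4879 CPM in w+ females, highest in replicate 4 and lowest in replicate 5 of both groups. All these ranks are of TMM-scaled levels. The TMM factor was lowest in replicate 4 of both female groups (0.935 in w-, 0.793 in w+) and highest of the w+ females in replicate 5 (0.959). In w- males it ranged from 1.08 to 1.10. The genes were also called in a fit with the replicate number as a block, which favours genes whose pools of 1 number move together. The part of the scaling in these ranks was not tested.

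The sexes differed in more P450 genes than the genotypes did. Comparing w- females with w- males, 26 of 75 P450 genes were higher in females and 7 lower (edgeR, adjusted p under 0.05 over 11423 genes), where 18.6% of all genes were higher and 16.7% lower (35.4% called in all). Between w+ females and w+ males, 27 were higher and 7 lower, where 19.7% of all genes were higher and 15.8% lower (35.5% in all). The ranges of the sexes did not overlap for 19 higher and 5 lower members in w- flies, against 14.6% and 13.0% of all genes, and for 16 higher and 4 lower in w+ flies, against 9.6% and 8.87%. The number of female-high members called depends on the scaling. Library size alone shifted the median of all genes by -0.17 in w- and -0.26 in w+ flies. With it, 18 members were higher and 9 lower in w- females, where 1050 of all 11423 genes were higher and 4718 lower. In w+ females 10 members were higher and 20 lower, where 719 of all genes were higher and 6440 lower. Relative to the median of all genes, the P450 median was 0.21 higher in w- females and 0.18 higher in w+ females both with library size alone and with DESeq2 size factors.

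In both genotypes 23 P450 genes were higher and 6 lower in females, under TMM scaling. Of the fat body markers without yolk proteins, 3 of 5 tested were higher in w- females and 4 of 5 in w+ females. Each genotype also had 4 of 4 hemocyte markers and 3 of 4 muscle markers higher in females. The remaining muscle marker, Act88F, was lower in females among w+ flies (-0.61 ± 0.16, edgeR adjusted p = 0.00592). Neuron markers went the other way, with 0 of 4 higher and 3 lower in females of each genotype. Photoreceptor markers had 0 of 6 higher, with 3 lower among w- flies and 1 among w+ flies. The part of these tissues in the result was not tested. By clan, 15 of 35 tested CYP3 genes were higher and 3 lower in w- females, as were 14 and 4 in w+ females. All 8 mitochondrial genes tested had a positive sign in both genotypes, and 5 were called higher in each. In the CYP4 clan 5 of 29 were higher and 4 lower in w- females, and 6 higher and 3 lower in w+ females. The CYP4 clan held 25.2 ± 1.23% of P450 counts in w- females, against 36.8 ± 1.91% in w- males, and 24.3 ± 0.638% in w+ females, against 35.0 ± 2.06% in w+ males (SD, n = 5 each).

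Much of that share was Cyp313a1 (FBgn0038236, chromosome 3R, 14521049 to 14523064, plus strand), the most abundant of the 82 P450 genes counted here in male heads. It had 388, 379, 276, 304 and 293 CPM in w- females, against 1041, 1082, 887, 784 and 917 CPM in w- males, and 257, 238, 269, 186 and 314 CPM in w+ females, against 750.2, 938, 1026, 783 and 886 CPM in w+ males. Every female pool lay under every male pool of its genotype, and the log2 fold changes, female over male, were -1.52 ± 0.13 in w- and -1.80 ± 0.14 in w+ flies (edgeR adjusted p = 1.48e-07 and 2.11e-08). Its genotype difference was not called in either sex. Cyp4d14 and Cyp309a2, which fell in w- heads, were lower in females too, by -1.79 ± 0.17 and -1.01 ± 0.29 in w- and -1.46 ± 0.16 and -0.80 ± 0.27 in w+ flies. Cyp6a21, Cyp9h1 and Cyp4d2 were lower by small amounts, between -0.32 and -0.19.

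Cyp18a1 (FBgn0010383, chromosome X, 18688538 to 18693042, minus strand) was the most female-high member on average. It had 23.3, 31.7, 31.5, 36.2 and 41.5 CPM in w- females, against 7.31, 10.0, 8.39, 9.81 and 9.46 CPM in w- males, and 44.2, 41.4, 26.8, 46.5 and 35.5 CPM in w+ females, against 7.96, 9.80, 9.87, 12.3 and 13.1 CPM in w+ males. The sexes did not overlap, and the log2 fold change was 1.87 ± 0.17 in w- and 1.87 ± 0.17 in w+ flies (edgeR adjusted p = 3.58e-07 and 3.60e-07). Cyp6d2, linked to camptothecin tolerance, was low but higher in females, with 0.787, 0.967, 0.882, 1.16 and 0.730 CPM in w- females, against 0.255, 0.0805, 0.225, 0.344 and 0.143 CPM in w- males (2.09 ± 0.31, adjusted p = 4.17e-05). In w+ flies the same gene had 1.39 ± 0.29 (adjusted p = 0.00115).

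Cyp6d5, among the highest members, had 503, 511, 420.3, 563 and 495 CPM in w- females, against 311, 311, 293, 304 and 325 CPM in w- males, and 506, 514, 539.9, 589 and 579 CPM in w+ females, against 314, 318, 368, 312 and 386 CPM in w+ males. The difference was nearly the same in the genotypes, 0.69 ± 0.07 and 0.68 ± 0.07 (edgeR adjusted p = 1.06e-06 and 1.50e-06). Cyp312a1 and Cyp4ac2 of the CYP4 clan were higher in females by 1.25 ± 0.17 and 0.70 ± 0.19 in w- and by 0.63 ± 0.17 and 0.97 ± 0.19 in w+ flies. The 2 genotypes do not share samples in these comparisons.

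**Figure D4:**
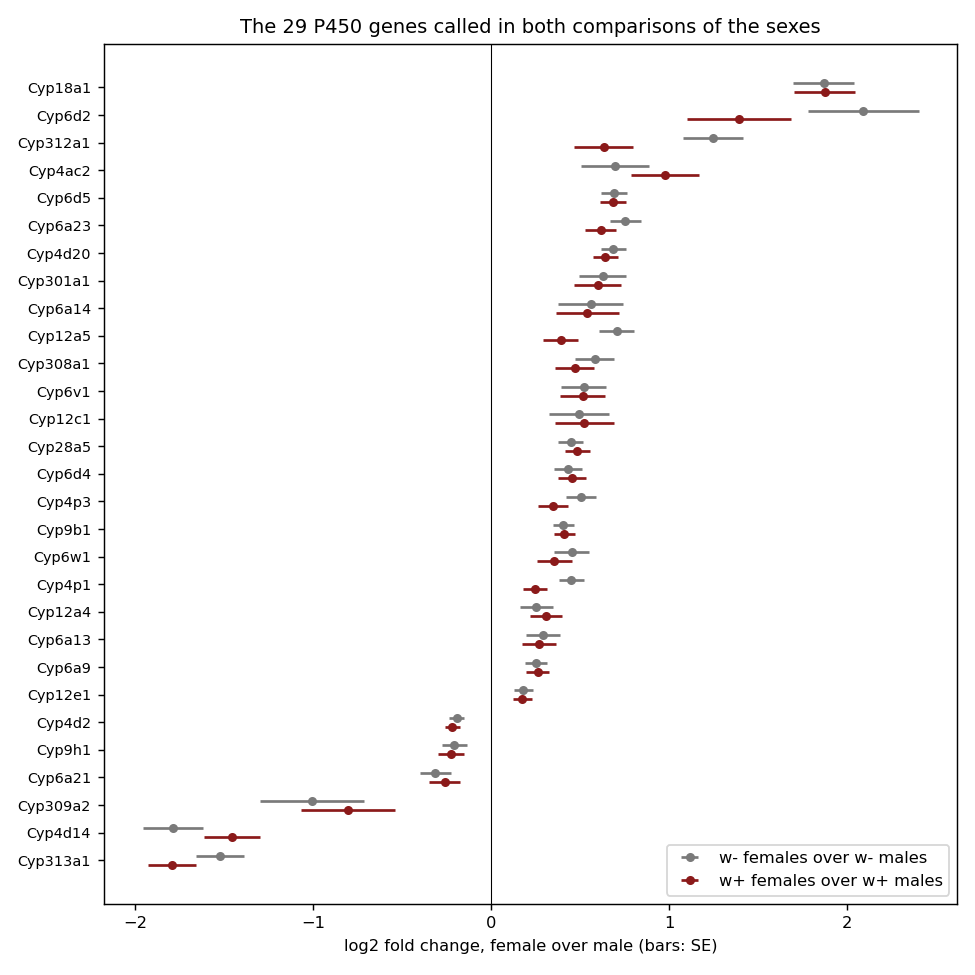
Log2 fold change, female over male, with SE, for the 29 P450 genes called in the same direction in w- and in w+ flies, under TMM scaling. Cyp18a1 and Cyp6d2 stand at the female-high end and Cyp313a1 and Cyp4d14 at the male-high end. With library size alone 10 of 75 were called higher and 20 lower in w+ flies, where 719 of all 11423 genes were higher and 6440 lower.

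Cyp4g1 (FBgn0010019, chromosome X, 467057 to 469335, minus strand) overlaps CG32816 on its own strand, so its reads are less certain. Cyp4g1 was close to all or none. It had 0.179, 0.134, 0.0999, 7.10 and 23.7 CPM in w- males, 9.27, 0.248, 41.2, 0.205 and 0.199 CPM in w+ males, 0.152, 0.127, 0.0569, 0.0807 and 21.0 CPM in w- females and 0.135, 25.3, 15.2, 13.5 and 0.350 CPM in w+ females. In 8 pools it lay between 7.10 and 41.2 CPM and in the other 12 at 0.350 CPM or less. High pools occurred in every group, 2 of 5 w- males, 2 of 5 w+ males, 1 of 5 w- females and 3 of 5 w+ females, and its genotype and sex differences have standard errors of 1.67 to 3.28 log2 units and none was called. Of the 11422 other genes tested, the 2 whose log2 levels followed it most closely over the 20 pools were CG16904 (Pearson r = 0.97) and CG17560 (r = 0.92), both at 26 counts or fewer. The oenocyte gene FASN2 did not show this split, at 1.17 to 1.74 CPM in w- males, against 1.63 to 3.23 CPM in w+ males, and 2.65 to 3.5 CPM in w- females, against 2.40 to 5.85 CPM in w+ females. In females eloF, another oenocyte marker, at 17 counts or fewer, had its highest levels in pools with high Cyp4g1. It had 0.440, 0.361 and 0.130 CPM in the 3 high w+ pools, against 0 and 0.108 CPM in the others. The 0.130 and 0.108 CPM, of replicates 4 and 5, lay near 3 counts, which make 0.0977 and 0.0809 CPM there, and do not separate these pools. In w- females eloF had 0.175 CPM in the high pool and at most 0.0508 CPM elsewhere. The highest male level of eloF, 0.154 CPM, was in a pool with low Cyp4g1.

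Cyp6g2 varied nearly as much. It had 1.25, 1.18, 10.3, 0.860 and 10.4 CPM in w- males, 0.946, 2.16, 0.791, 2.57 and 0.640 CPM in w+ males, 6.73, 5.73, 7.34, 0.511 and 1.197 CPM in w- females and 1.79, 1.32, 4.38, 10.4 and 2.99 CPM in w+ females, and no comparison called it. Its end overlaps that of Cyp6g1 by 94 bases on the opposite strand, while Cyp6g1 itself varied by only 7.57%. The genes most like Cyp6g2 over the 20 pools were CG43315 (r = 0.87), CG14075 (r = 0.78) and Akh (r = 0.77), the adipokinetic hormone of the corpora cardiaca, a gland at the base of the head. The juvenile hormone enzyme jhamt, of the adjoining corpus allatum, ranked 11 (r = 0.65). These likenesses are descriptions across pools that share their dissection and depth, and the genes were singled out after their values were seen.

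**Figure D5:**
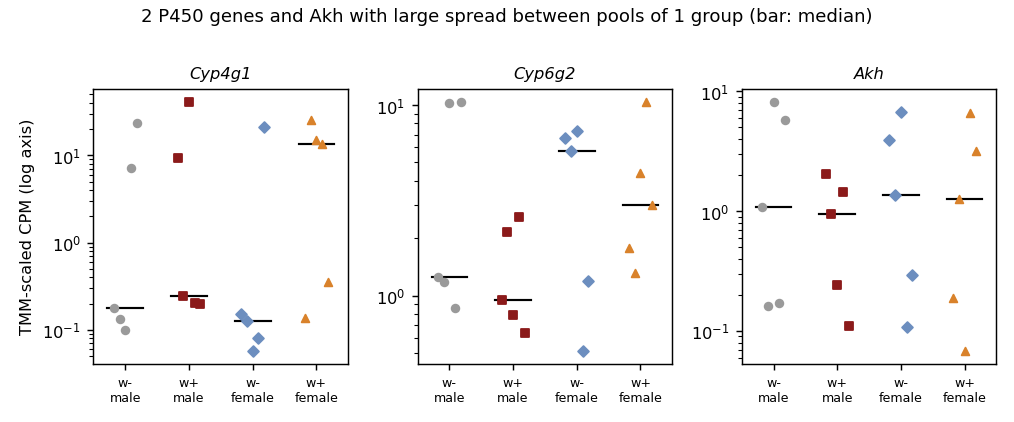
TMM-scaled CPM on log axes of Cyp4g1, Cyp6g2 and Akh, 1 point per pool, with the median of 5 pools as a bar. High and low pools of Cyp4g1 are separated by a gap between 0.350 and 7.10 CPM and occur in all 4 groups.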

How the data were processed

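Raw counts per gene of 20 head pools were analysed. The authors trimmed reads with Trim Galore 0.6.1, used STAR for alignment against FlyBase r6.60, and deposited STAR's reverse-strand counts, not normalized. They also deposited 1 table of normalized signal per sex, counts divided by DESeq2 size factors, used here only for its gene symbols. Of the 84 members, 75 symbols came from those tables and 9 from a table of gene names. Positions and exon lengths were read from Ensembl's BDGP6.54 gene models, an annotation of that assembly. No per-sample column was left unassigned.

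Genes with at least 10 counts in 3 of the 20 pools, and in 3 of a fit's pools, were tested with edgeR 4.0.16 in R 4.3.3 (TMM, robust quasi-likelihood) over all genes. Genotypes were compared within each sex with the replicate number as a block, as in the study's code, their difference between the sexes with 10 blocks, and the sexes within each genotype from the 4 group means without a block. Adjusted p-values are Benjamini-Hochberg, and a gene is called at an adjusted p under 0.05. Intervals are 1.96 SE. Alternatives were DESeq2 1.42.0, other scalings and filters, the block, a fold minimum, all 20 pools in 1 fit and each replicate left out. The fitting code was tested on simulated data. No pools were copies, with a chi-square per degree of freedom of at least 14.2 between pools of a group. Depth limits precision at 3 counts per pool, and no molecular identifiers are described, so floors cover counting error only.

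The members, the gene lists, the clan of each gene and the rule for named genes were chosen with earlier results of these data known. Named are the members called between genotypes, the 10 highest per kb, the 5 with the largest mean rise and fall between the sexes, those of 4 role lists, those within 1 Mb of w, those with an interaction p under 0.01, and, of other genes, w and the called partner genes. Cpr, CG16904, CG17560, CG43315, CG14075, Akh, jhamt, eloF, Treh, Act88F and the remaining members were named after their values were seen.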

Additional observations from a re-analysis of the deposited data

Results flagged for a closer look

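Of 176 sets of 5 pools, 1 for each named member and group, 7 held a pool that stood apart from the other 4 by more than 0.71 of the range of the 5 pools (chance flags about 1 in 20). Cyp4g1 stood apart in w- females replicate 5, at 21.0 CPM, against 0.0569 to 0.152 CPM in the other 4, and in w+ males replicate 3, at 41.2 CPM, against 0.199 to 9.27 CPM. Replicate 4 of the w- females was high for Cyp12a4, at 158 CPM against 115.1 to 123.1 CPM, and for Cyp309a2, at 1.24 CPM against 0.458 to 0.671 CPM. Cyp6a20 was low in w- females replicate 3, at 193 CPM against 210 to 213 CPM, the pool with the midgut enzymes. Cyp12a4 was high in w+ males replicate 5, at 144 CPM against 122 to 125 CPM, and Cyp4g15 in w+ males replicate 3, at 97.5 CPM against 84.1 to 84.6 CPM. For no P450 gene did the test of a genotype difference between the sexes pass after adjustment.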

How the results depend on the processing

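None of the 49 named differences changed sign under any alternative that gave a value. In males, Cyp309a2, Cyp4d14, Cyp9c1, Cyp6a20 and Cyp6a22 stayed called in all 12 alternatives, and of the 15 female genotype calls none did. Leaving out a replicate gave 6 to 19 called P450 genes in males (14 with all), 0 to 14 in females (15 with all), 28 to 33 between w- females and w- males (33), 24 to 32 between w+ females and w+ males (34), and 0 for the difference between the sexes. Over all genes these fits called 714 to 1526 in males, 82 to 1121 in females, 2979 to 3768 in the w- and 2748 to 4157 in the w+ comparison of the sexes. In females the 0 came without replicate 1 and without replicate 4, where edgeR called 112 and 82 genes of all. A required absolute log2 fold change of 0.5 left 7 in males, 5 in females, 17 and 16 between the sexes. The share of all genes at that minimum was not counted. The replicate block was kept because the study's code uses it, although numbers did not pair the pools by their deviations (4 of 5 male pairs and 2 of 5 female pairs correlated over 0.1; 3 male and 0 female pairs were each best with their own number). With no replicate block, 19 were called in males, 10 in females and 0 for the difference, where 1737, 659 and 3 of all genes were called. A replicate block across all groups gave 36 and 33 between the sexes, where 4405 and 4299 of all genes were called. Under library size alone the summed P450 level was 4912.4 CPM in w- males, against 5130.9 CPM in w+ males, and 4484.5 CPM in w- females, against 4304.6 CPM in w+ females, so that the order of the female groups turned. Leaving out w- females replicate 3 or w+ females replicate 4, chosen after seeing the data, gave 37 and 29. Over all genes those fits called 3567 and 3559. Depth limits members near 3 counts.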

Other observations

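Of all genes tested, 12.7% were called in males and 9.23% in females. Of the 9 genes of heme synthesis and breakdown, 0 were called in males and 1 in females, Ho, the heme oxygenase, which averaged 30.5 ± 1.46 CPM in w- females and 35.0 ± 2.90 CPM in w+ females (SD, n = 5 each; log2 fold change -0.19 ± 0.04, edgeR adjusted p = 0.0300). Of 11 regulators of P450 and hormone response genes, Kr-h1, a juvenile hormone target, fell in males (23.3 CPM in w- and 27.9 CPM in w+ males; -0.26 ± 0.07, edgeR adjusted p = 0.0382), and EcR, the ecdysone receptor, rose in females (77.1 CPM in w- and 70.9 CPM in w+ females; 0.12 ± 0.03, edgeR adjusted p = 0.0495). The xenobiotic receptor Hr96 had 0.03 ± 0.05 in males and 0.08 ± 0.06 in females, neither called. The 7 genes of ecdysone synthesis found, several of them P450 enzymes under other names, were low in these heads, with summed levels of at most 3.79 CPM in any pool, and 0 of the 4 tested were called in either sex. None of the 6 juvenile hormone genes was called in either sex.

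The cyclophilins that share the name prefix were not called between genotypes. Cyp1 averaged 610.0 ± 15.6 CPM in w- males, against 662 ± 94.1 CPM in w+ males, and 764 ± 45.7 CPM in w- females, against 869 ± 119 CPM in w+ females, and was higher in females of both genotypes (0.32 ± 0.09 and 0.39 ± 0.09, edgeR adjusted p = 0.0109 and 0.00316).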
